A study of Homo sapiens with 4 samples.

Results

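Integrins are surface receptors made of 1 alpha and 1 beta chain, and they tie cells to the surrounding matrix and to the actin cytoskeleton. Several of the chains that pair with ITGAV recognise a short motif in fibronectin, vitronectin and the latency peptide of TGF-beta, and the pairs with ITGB6 or ITGB8 are known for releasing active TGF-beta from that latent form. ITGB1 is the common partner of the collagen chain ITGA2, the laminin chain ITGA3, the fibronectin and VCAM1 chain ITGA4 and the fibronectin chain ITGA5. In breast carcinoma cells these receptors are known for their part in adhesion, spreading and invasion.

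The 10 chains described here are ITGB8, ITGB3, ITGB1, ITGB5, ITGB6, ITGAV, ITGA2, ITGA3, ITGA4 and ITGA5. None belongs to the hemidesmosome, the junction that anchors epithelial cells to laminin, and 15 other measured integrin chains are set beside them below. They were taken by gene symbol, with the brightest probe set where a gene had several, and each of the 10 had exactly 1 probe set, among 18417 genes with a probe set of their own. The groups were MDA-MB-231 cells, an established human breast cancer line of basal-like, mesenchymal-like character, transfected by a lipid reagent with an expression plasmid of FOXC1, a forkhead transcription factor (2 arrays), or with the control vector (2 arrays). All cells grew in medium with 10% fetal bovine serum, penicillin and streptomycin, and 1 Affymetrix whole-transcript array was run per sample on total RNA. The labels call the 2 arrays of a group biological replicates. They do not say whether pools or clones were used or how long after transfection RNA was taken. The p-values rest on the spread between these arrays, taken mostly from other genes of like signal, and that spread may be technical. The level of FOXC1 mRNA was not analysed here and gave no check of the labels.

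The median array signal was 499 and 512 in the FOXC1 arrays and 492 and 489 in the vector arrays. All 8 markers listed for MDA-MB-231-like cells were brighter than 277, the 25th percentile of probe set means, among them CD44, VIM and AXL, while the steroid receptors ESR1 (267 ± 8.41 in FOXC1 and 245 ± 0.132 in vector cells) and PGR (102 ± 7.48 in FOXC1 and 93.3 ± 4.95 in vector cells; SD, n = 2 each) lay below that limit. Of the 10 luminal epithelial markers, 7 were above it, the keratins KRT8, KRT18 and KRT19 and the adhesion molecule EPCAM among them. CDH1 was barely above it, at 280 ± 10.0 in FOXC1 and 274 ± 4.47 in vector cells (SD, n = 2 each). Most probe sets exceed a 25th percentile by definition, so these counts say little about the kind of cell.

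ITGB8 changed most among the 10 chains. On the fitted scale it stood at 31.7% of its vector level in FOXC1 cells, and the collagen chain ITGA2 and the laminin chain ITGA3 were also lower. ITGB3 and its partner ITGAV were slightly higher. The remaining 5 chains, ITGB1 included, did not pass the test. In limma, fitted over all probe sets with a gene symbol on log2(signal + 16) with Benjamini-Hochberg adjustment at 0.05, 3 of the 10 chains were thus called lower and 2 higher. Of all 18417 genes, 15.5% were called lower and 15.9% higher, 31.4% in either direction, and with only 10 chains nothing particular to them is read from the count of 5. Among genes brighter than the median gene, where 6 of the chains lie, 47.4% were called, and 3 of those 6 chains were. The median log2 change of the 10 chains was -0.07, against 0.03 over all genes, and it ranged from -1.66 to 0.21. ITGB8 alone of the 10 passed with a change of at least 2-fold, which 0.69% of all genes did in the lower direction and 0.271% in the higher one.

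**Figure D1:**
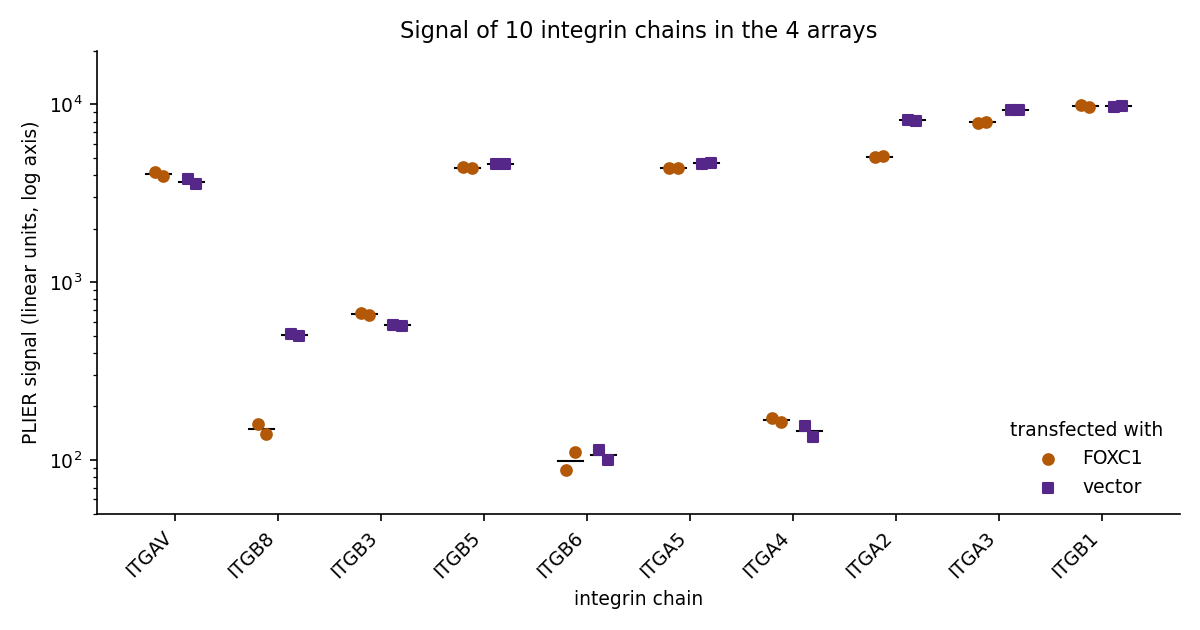
PLIER signal (linear units on a log axis) of the 10 integrin chains in each array, FOXC1 arrays as circles and vector arrays as squares, with the group mean as a line. ITGB8 and ITGA2 show the widest gaps between groups, and the arrays of ITGB1 and ITGB6 overlap. Heights of different chains come from different probes and are not comparable.

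ITGB8, which pairs with ITGAV to bind latent TGF-beta, had signals of 159.8 and 139.8 in the FOXC1 arrays, against 514 and 499 in the vector arrays. Both FOXC1 arrays lay far below both vector arrays, and the gap exceeded the spread within each group many times over. The fitted change was a log2 of -1.66 ± 0.09 (SE), a 3.16-fold fall with a limma adjusted p of 1.05e-11 and a 95% interval of -1.85 to -1.46. By size it was the 39th largest fall of the 18417 genes. Its FOXC1 signal was below the brightness limit of 277, and the fall was 3.37-fold with an offset of 1 and 2.67-fold with an offset of 64.

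The other beta chains that pair with ITGAV changed far less. ITGB3, the vitronectin receptor chain that platelets and osteoclasts also carry, had signals of 673 and 653 in FOXC1 cells, against 573 and 569.6 in vector cells, a log2 change of 0.21 ± 0.07 (SE; limma adjusted p = 0.0228). Its arrays did not overlap between groups, but the call was lost with median centring (adjusted p = 0.0846), with unnamed probe sets in the fit (0.0564) and without FOXC1 replicate 1 (0.0568), vector replicate 1 (0.128) or vector replicate 2 (0.152), each with the same direction. ITGB5, another vitronectin receptor chain, had signals of 4418 and 4386 in FOXC1 cells, against 4614 and 4632 in vector cells, with a log2 change of -0.07 ± 0.03 (SE; adjusted p = 0.0936). It passed with quantile normalization (adjusted p = 0.0294) and with median centring (0.0471). ITGB6, the epithelial partner that also releases TGF-beta, was dim in all 4 arrays, with 87.6 and 110.5 in FOXC1 cells and 114 and 100.01 in vector cells. Its groups overlapped, and the interval of its log2 change ran from -0.37 to 0.17, so that at this brightness a change of that size was not resolved.

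ITGAV itself, the alpha chain shared by these receptors, had signals of 4184 and 3952 in FOXC1 cells, against 3777 and 3567 in vector cells. The groups did not overlap, with a log2 change of 0.15 ± 0.04 (SE; limma adjusted p = 0.00441). The call was lost without vector replicate 2 (log2 0.11, adjusted p = 0.118), without a variance trend (0.139), with median centring (0.0837) and with unnamed probe sets in the fit (0.058). Because the arrays measure each chain on its own probes, chains were compared through the change of their ratio within an array, set to a mean of 0 in vector cells. The log2 ratio of ITGB8 to ITGAV was -1.76 and -1.85 in the FOXC1 arrays, against -0.02 and 0.02 in the vector arrays. The same ratio for ITGB3 was 0.04 and 0.08 in FOXC1 cells, against -0.04 and 0.04 in vector cells. For ITGB5 it was -0.25 and -0.18 in FOXC1 cells, against -0.04 and 0.04 in vector cells. For the dim ITGB6 it was -0.43 and -0.06 in FOXC1 cells, against 0.04 and -0.04 in vector cells, so its mean rests mostly on 1 array. On average the ratio to ITGAV moved by -1.81 for ITGB8, -0.25 for ITGB6, -0.22 for ITGB5, -0.13 for ITGB1 and 0.06 for ITGB3, so that ITGB8 was the one beta partner of these whose ratio moved by more than 1 log2 unit. With 2 arrays per group an exact permutation test of such a ratio cannot give a two-sided p below 0.33, and no other test of the ratios was run.

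ITGA2, the chain that binds collagen with ITGB1, had signals of 5077 and 5094 in FOXC1 cells, against 8206 and 8104 in vector cells. The group means were 5086 ± 11.4 in FOXC1 cells and 8155 ± 72.0 in vector cells (SD, n = 2 each), a gap far wider than the spread within either group. The fall was 1.60-fold, a log2 change of -0.68 ± 0.03 (SE; limma adjusted p = 2.62e-14). ITGA3, the laminin chain, had signals of 7884 and 7984 in FOXC1 cells, against 9288 and 9315 in vector cells, with a log2 change of -0.23 ± 0.02 (SE; adjusted p = 2.13e-07), a 1.17-fold fall. Both FOXC1 arrays lay below both vector arrays for each of these chains, and both calls held in every alternative run.

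ITGB1, the partner of ITGA2, ITGA3, ITGA4 and ITGA5, had signals of 9951 and 9716 in FOXC1 cells, against 9677 and 9784 in vector cells. Its groups overlapped, and the log2 change of 0.01 ± 0.02 (SE; limma adjusted p = 0.687) had an interval of -0.03 to 0.06. The log2 ratio of ITGB1 to ITGA2 was accordingly 0.71 and 0.67 in FOXC1 cells, against -0.02 and 0.02 in vector cells, and that to ITGA3 was 0.27 and 0.22 in FOXC1 cells, against -0.01 and 0.01 in vector cells.

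The fibronectin chains ITGA5 and ITGA4 did not pass. ITGA5, the main fibronectin receptor chain, had signals of 4408 and 4399 in FOXC1 cells, against 4601 and 4705 in vector cells. The groups did not overlap, and the log2 change of -0.08 ± 0.03 (SE) had a limma adjusted p of 0.0608. It passed once probe sets under the 25th or the 50th percentile were left out (adjusted p = 0.0441 and 0.0337), with quantile normalization (0.0225), with median centring (0.0295) and with the replicate number as a block (0.0429), at a change of at most 1.09-fold. ITGA4, a chain best known from leukocytes, was dim, with 172 and 163 in FOXC1 cells, against 155 and 135 in vector cells, and a log2 change of 0.19 ± 0.11 (SE; adjusted p = 0.203). Over the 10 chains, 5 had both FOXC1 arrays below both vector arrays and 3 had them above, where all genes did so in 26.4% and 37.1% of cases.

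**Figure D2:**
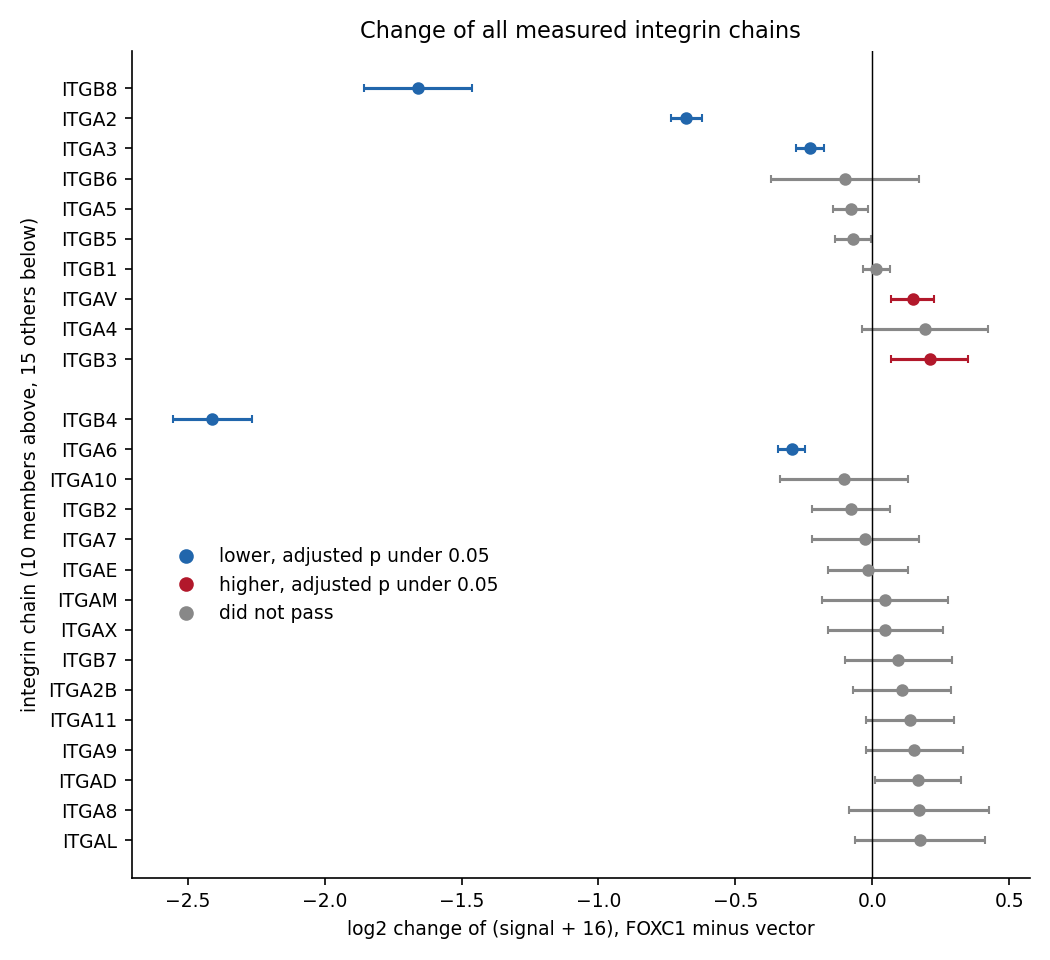
Log2 change of (signal + 16), FOXC1 minus vector, for the 10 chains above and 15 other measured integrin chains below, with 95% intervals from limma. Blue passed as lower, red as higher and grey did not pass at an adjusted p of 0.05; ITGB8 and ITGB4 stand far to the left of the rest.

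The other measured integrin chains gave the comparison for these 10. Of 15, 2 fell (13.3%, beside 15.5% of all genes) and 0 rose, and 13 did not pass, with log2 changes between -0.10 and 0.17. The 2 that fell were the hemidesmosome pair. ITGB4, the laminin-binding beta chain, had signals of 251 and 265 in FOXC1 cells, against 1468 and 1414 in vector cells, and ITGA6, its alpha partner, had 8272 and 8249 in FOXC1 cells, against 10131 and 10139 in vector cells (log2 -0.29 ± 0.02 SE; limma adjusted p = 3.03e-09). ITGB4 and ITGB8 were the 2 integrin chains of 25 measured that passed with a fall of at least 2-fold. The leukocyte and muscle chains of that list did not pass, and 6 of the 15 were dimmer than 277 on average.

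Promoter windows from RefSeq (GRCh38.p14), the 250 bases before a listed start, were found for 8 of the 10 genes, in 12 windows. Sequences are shown for ITGA2, one of the falls that held in all alternatives and whose window ends at the gene's outermost start, and for ITGAV, a chain that passed in the other direction. ITGA2 lies on the plus strand at chr5:52989102-52989351 and ITGAV on the plus strand at chr2:186589806-186590055. Capitals mark the GC box GGGCGG on either strand.
ITGA2: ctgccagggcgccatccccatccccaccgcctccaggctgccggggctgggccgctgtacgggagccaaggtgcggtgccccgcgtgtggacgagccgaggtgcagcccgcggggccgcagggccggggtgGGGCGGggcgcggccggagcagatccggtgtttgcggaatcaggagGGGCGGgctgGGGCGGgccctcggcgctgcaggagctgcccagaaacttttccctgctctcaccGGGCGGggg
ITGAV: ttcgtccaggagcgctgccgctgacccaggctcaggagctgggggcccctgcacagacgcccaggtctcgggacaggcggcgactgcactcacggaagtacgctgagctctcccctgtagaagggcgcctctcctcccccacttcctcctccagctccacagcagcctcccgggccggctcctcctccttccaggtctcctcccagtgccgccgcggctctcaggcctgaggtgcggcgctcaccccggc

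The ITGA2 window held 4 GC boxes and the ITGAV window 0. Of the 12 integrin windows 6 held at least 1, against 42.6% of all 35116 windows of this length. The outer ITGB1 window, of a chain that did not pass, held 3, and the ITGB8 window held 2. GC content was 76.4% in the ITGA2 window and 70.8% in the ITGAV window, above the median of 58% over all windows. The forkhead word GTAAACA was searched on both strands, as were its variants GTAAATA (with T), then the word ATAAACA and finally its variant ATAAATA, and 12.4% of all windows held at least 1 of these. They occurred in 1 of the 12 integrin windows, the inner ITGB1 start, as ATAAACA 104 bases before the start. The AP-1 word TGANTCA was in 0 of the 12 windows, against 6.57% of all windows. The ITGB8 window had a GC content of 71.2% and none of the forkhead or AP-1 words. It lies inside the span of the gene and is not printed. These counts describe letters in a short window only.

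Genes beside ITGB8 on chromosome 7 did not share its fall. Among the 5 measured genes on each side, in the gene order of GRCh38.p14, 0 were called lower, 1 (the pseudogene RPL23P8) was called higher and 9 did not pass, with log2 changes from -0.10 to 0.16 and a median of 0.02. Of all genes 15.5% were called lower and 15.9% higher. Nothing particular is therefore read from counts of calls over 10 neighbours, here or around the other chains. The genes next to ITGB8 were MACC1 and ABCB5, at log2 -0.10 and 0.01, chosen here by position. Around ITGA2 on chromosome 5, 0 of 10 neighbours were lower and 2 were higher. The activin-binding protein FST rose by a log2 of 1.42, and the other of the 2 was EMB, at 0.23. The neighbours of ITGA3 on chromosome 17 had a median log2 change of -0.07, and PDK2, a kinase of pyruvate dehydrogenase and the gene beside it, fell by 0.50 on the log2 scale, more than ITGA3 itself. ITGAV, ITGA4 and ITGB6 all lie on chromosome 2, and their neighbours had medians of -0.11, -0.05 and -0.03. The most changed of these was ZNF804A, near ITGAV, which rose by a log2 of 0.79 (limma adjusted p = 6.07e-12), while the largest change near ITGA4, in CERKL, did not pass (log2 0.15) and BAZ2B near ITGB6 fell by 0.39 on the log2 scale. Near the other chains the most changed were NPEPPS at log2 -0.27 beside ITGB3, CREM at 0.40 beside ITGB1, HEG1 at -0.45 beside ITGB5 and ZNF385A at -0.44 beside ITGA5.

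**Figure D3:**
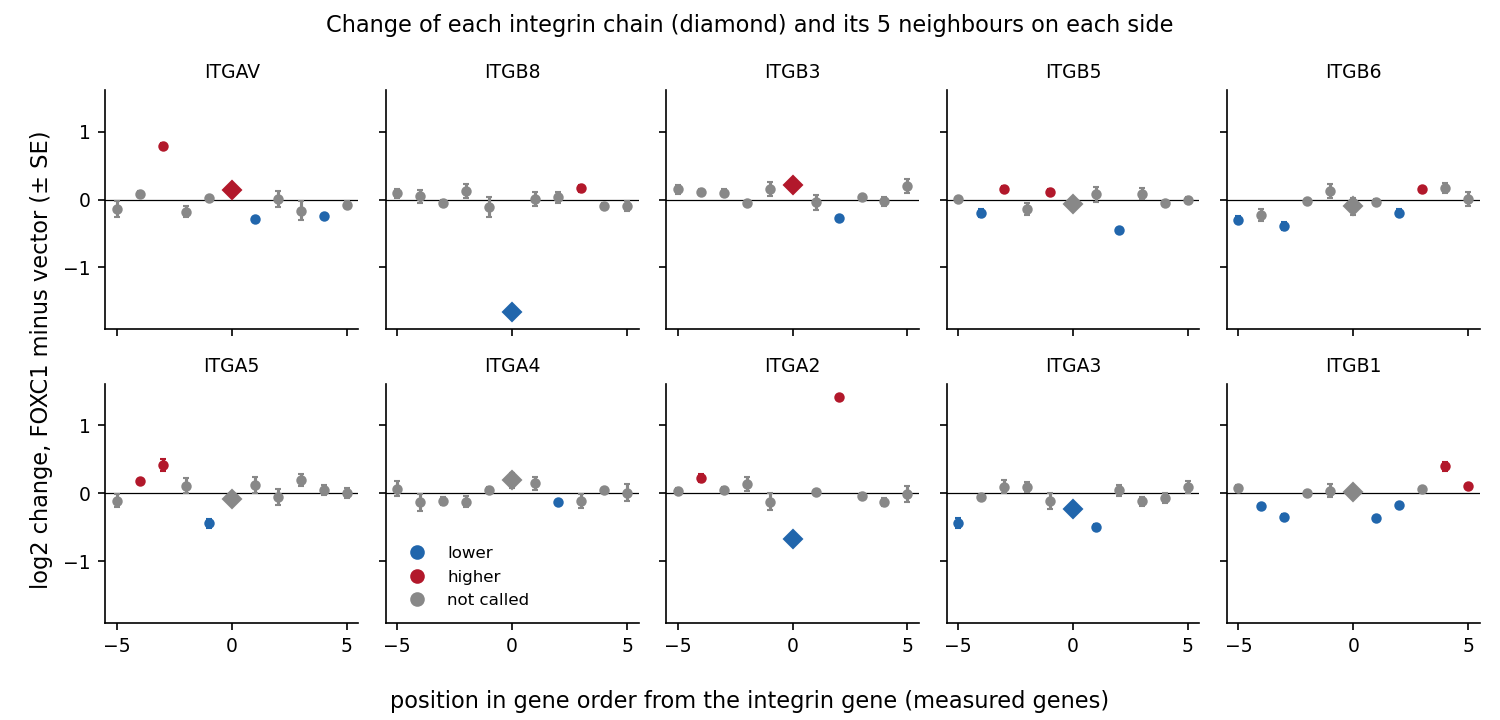
Log2 change (FOXC1 minus vector, ± SE) of each integrin chain, drawn as a diamond at position 0, and of the 5 measured genes on each side in chromosome order. ITGB8 stands alone below its neighbours, and ITGA2 lies below 0 with the rising FST at position 2.

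The genes whose profile over the 4 arrays lay nearest to that of ITGB8, by Euclidean distance of mean-centred log2 signal over 18417 genes, were the peptide receptor VIPR1 (3.10-fold lower), the stress-response gene NDRG1 (3.07-fold lower) and the claudin CLDN7 (3.02-fold lower). With 2 groups of 2 arrays, this likeness amounts to a fall of nearly the same size.

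Genes whose products work with integrins were taken from 5 further lists with 123 genes, of which 115 were measured. Of these, 40 were lower (34.8%) and 23 were higher, beside 15.5% and 15.9% of all genes. Of the 80 that were brighter than the median gene 55 were called, against 47.4% of all genes brighter than the median. This limit, used for each list below as well, matches brightness only coarsely. The SE of the log2 change was 0.019 for ACTN1, at percentile 99.8 of signal, and 0.059 for FBN1, at percentile 53.2. The median log2 change of the 5 lists together was -0.03, against 0.03 over all genes. The lists were chosen with earlier results of these data known. Nothing particular to integrin partners is therefore read from the counts of calls, here or list by list below.

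Ligands moved in both directions, with 6 of 26 lower and 6 higher (23.1% each), and 14 that did not pass. Of all genes 15.5% were lower and 15.9% higher. Of the 17 ligands brighter than the median gene 11 were called, against 47.4% of all genes that bright. The laminin chain LAMA5 had signals of 842 and 826 in FOXC1 cells, against 1586 and 1583 in vector cells. Tenascin C, TNC, a matrix protein bound by ITGAV receptors, had 2291 and 2341 in FOXC1 cells, against 4207 and 4066 in vector cells, and the collagen chain COL6A1 had 741 and 879 in FOXC1 cells, against 1443 and 1390.2 in vector cells. In the other direction COL4A1, a basement membrane collagen chain that ITGA2 can bind, had 1475 and 1469.7 in FOXC1 cells, against 864 and 842 in vector cells (log2 0.78 ± 0.05 SE; limma adjusted p = 2.57e-10). These 4 were the largest called changes of the list. Fibronectin itself, FN1, named for its role and outside the rule for named genes, had 5041 and 5068 in FOXC1 cells, against 5058 and 5094 in vector cells, with overlapping groups and a limma adjusted p of 0.903. VTN, the vitronectin gene, overlapped as well, at log2 0.03 ± 0.09 (SE).

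In the list of latent TGF-beta proteins, receptors and targets, 9 of 19 were lower (47.4%) and 6 were higher (31.6%). Of all genes 15.5% were lower and 15.9% higher. Of the 13 brighter than the median gene 11 were called, against 47.4% of all genes that bright. LTBP1, which holds latent TGF-beta in the matrix, had signals of 1030 and 1002 in FOXC1 cells, against 2211 and 2189 in vector cells, a 2.15-fold fall (log2 -1.10 ± 0.05 SE; limma adjusted p = 1.09e-13). TGFBI, a TGF-beta induced matrix protein that integrins bind, had 536 and 423 in FOXC1 cells, against 1059.9 and 1013 in vector cells. INHBA, the activin chain, had 457 and 467 in FOXC1 cells, against 217 and 199 in vector cells, and SKIL, a SMAD corepressor induced by TGF-beta, had 3097 and 3210.02 in FOXC1 cells, against 1947 and 1967 in vector cells. The ligand TGFB1, named for its role and outside the rule, had 3990 and 3821 in FOXC1 cells, against 3279 and 3285 in vector cells, a log2 change of 0.25 ± 0.04 (SE; limma adjusted p = 9.02e-06). Also lower by this test were LTBP4, TGFBR1, TGFBR2, TGFBR3, SMAD2, SMAD3 and SMAD4. Also higher were TGFB2, LTBP2 and SMAD7, and all of these are outside the rule for named genes. ITGB8 was lower in the same arrays, and no direction of the pathway is read from these genes.

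Among adaptors that activate integrins or join them to actin, 13 of 35 were lower (37.1%) and 4 were higher (11.4%), beside 15.5% and 15.9% of all genes. Of the 24 brighter than the median gene 16 were called, against 47.4% of all genes that bright. The list had a median log2 change of -0.07 against 0.03 over all genes. Most of these changes were small. The paxillin relative LPXN fell by 0.42 on the log2 scale and the Cas family scaffold BCAR1 by 0.29, while LIMS1, a partner of the kinase ILK, rose by a log2 of 0.31. NEDD9, the other Cas family scaffold of the list, had signals of 709.5 and 657 in FOXC1 cells, against 366 and 317 in vector cells, and its log2 change of 0.97 ± 0.08 (SE; limma adjusted p = 6.5e-09) had the largest size on this list. The other 2 that rose were the actin crosslinker ACTN1 and ITGB1BP1, which binds the ITGB1 tail, at log2 0.13 and 0.11. The 18 adaptors that did not pass included the activators TLN1 and FERMT2, at log2 0.01 and -0.02, both named for their role and outside the rule.

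Trafficking genes divided evenly, with 5 of 18 lower and 5 higher (27.8% each), beside 15.5% and 15.9% of all genes. Of the 14 brighter than the median gene 9 were called, against 47.4% of all genes that bright. The kinase PRKCA, NRP1, a coreceptor, and the small GTPase ARF6 fell by 0.46, 0.37 and 0.29 on the log2 scale, and the filopodial motor MYO10, which carries integrins, rose by a log2 of 0.46. The lower ones also included NUMB and RAB11FIP1, and the higher ones RAB4A, HAX1, RAB21 and RAB5C. Of 17 tetraspanins and other proteins that sit beside integrins in the membrane, 7 were lower (41.2%) and 2 were higher (11.8%). Among the 12 of them brighter than the median gene 8 were called. TSPAN1 and CD82, which are tetraspanins, fell by 0.44 and 0.33 on the log2 scale, and the caveolae protein CAV1 fell by 0.28. SLC3A2, which binds beta chains and carries amino acid transporters, rose by a log2 of 0.35, and the urokinase receptor PLAUR, the other of the 2 that rose, by 0.07. Genes outside the rule that complete a count of 5 or fewer, here and among the markers, were named after their values were seen.

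**Figure D4:**
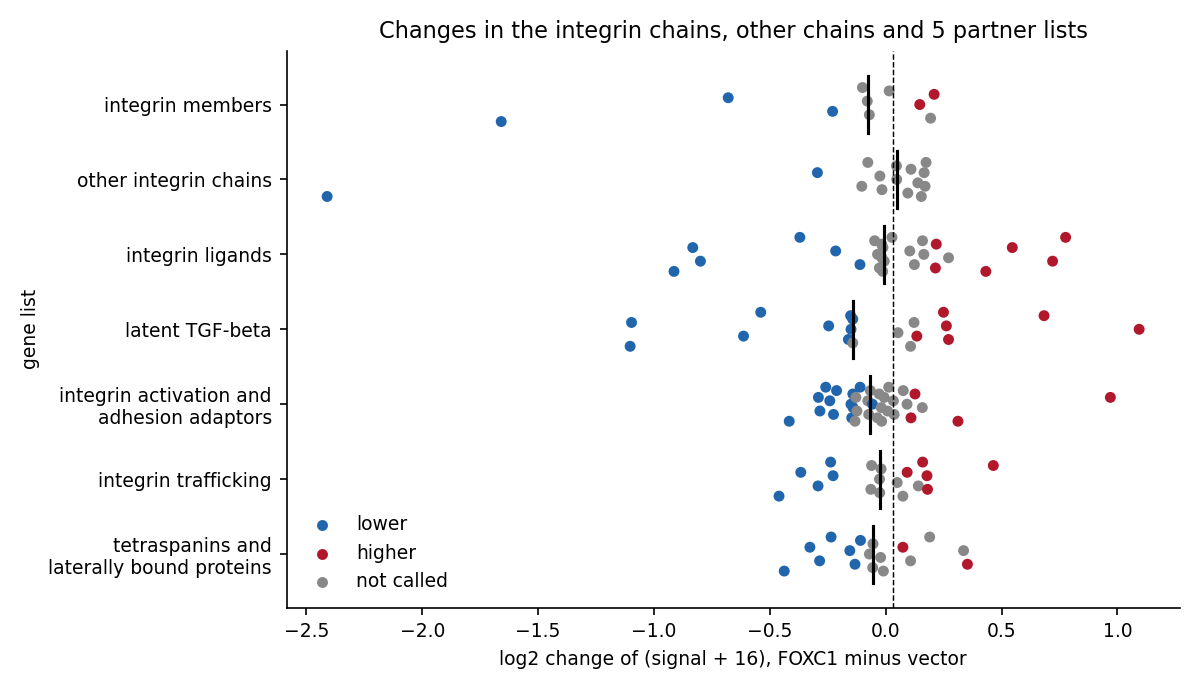
Log2 change of (signal + 16), FOXC1 minus vector, for each gene of the 10 chains, of the other integrin chains and of 5 lists of partner genes, coloured by the call, with the list median as a black bar and the median of all genes as a dashed line. The ligand, latent TGF-beta and trafficking lists spread to both sides, and the adaptor list has 13 genes called lower and 4 called higher.

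Markers of other cells were set beside these changes, and their counts of calls stand against the 15.5% of all genes called lower and 15.9% called higher. Among 10 luminal epithelial markers 5 (EPCAM, MUC1, KRT8, KRT18 and KRT19) were lower and 0 higher, and their summed signal was 21434 and 21065 in FOXC1 arrays, against 24992 and 25338 in vector arrays. Of the 8 markers listed for MDA-MB-231-like cells, 4 (PLAU, CAV1, MSN and VIM) were lower and 2 (CD44 and EGFR) higher. Falls were thus not particular to the luminal list. For 8 fibroblast markers, 0 were lower and 1, DCN, was higher, with sums of 2210 and 2283 in FOXC1 arrays and 2191 and 2147 in vector arrays. DCN was dim, at 147 ± 1.43 in FOXC1 and 89.4 ± 2.56 in vector cells (SD, n = 2 each). Of 7 endothelial markers 1, PECAM1, was lower (247 ± 3.00 in FOXC1 and 816 ± 138 in vector cells; SD, n = 2 each), and the sums were 3260.5 and 3371 in FOXC1 arrays and 3716 and 3959 in vector arrays. Of 6 platelet markers, 0 were lower and 1, PF4, was higher, with sums of 1975 and 2173 in FOXC1 arrays and 1993 and 1890.4 in vector arrays. Of 7 leukocyte markers, 0 were lower and 2, PTPRC and CD68, were higher, and the sums were 11341 and 11057 in FOXC1 arrays and 10654 and 10746 in vector arrays. Most of these sums was CD68, at 8922 ± 246 in FOXC1 and 8483 ± 31.9 in vector cells. PTPRC was dim, at 93.7 ± 0.275 in FOXC1 and 63.1 ± 0.641 in vector cells (SD, n = 2 each). No marker in these lists was at 0. Their part in the integrin results was not tested, and in RNA of whole cultures fewer cells that express a gene and less RNA per cell cannot be told apart.

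**Figure D5:**
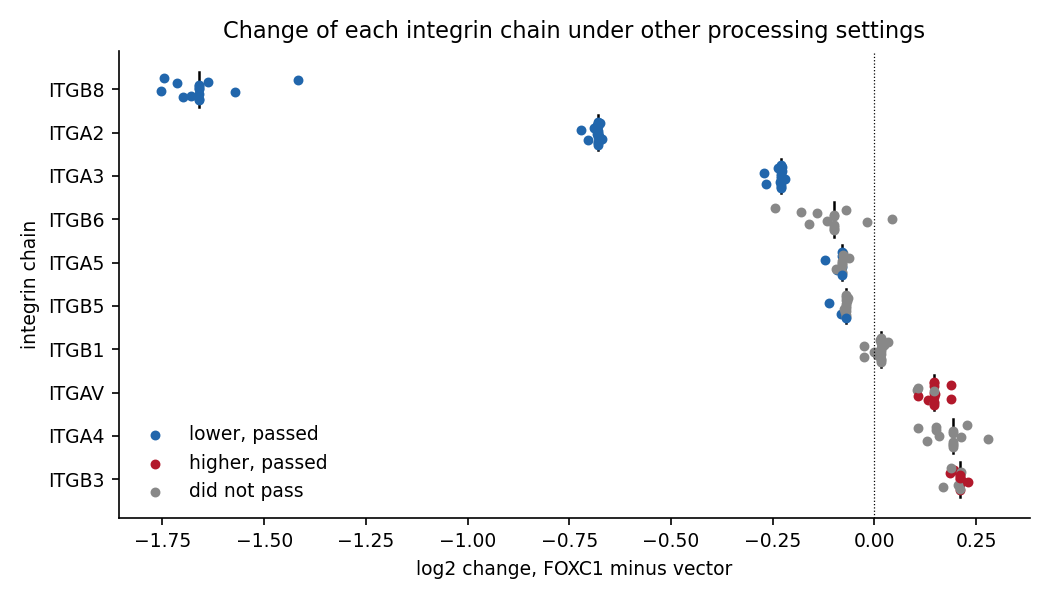
Log2 change of each of the 10 chains (FOXC1 minus vector) under up to 16 other processing settings, with the main value as a black bar and colours for whether the chain passed. ITGB8, ITGA2 and ITGA3 are blue at every setting that kept them, and ITGB3 and ITGAV are partly grey.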

How the data were processed

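The deposited values are array intensity on a linear scale. Per the labels and the submitters' processing notes, the authors summarised probes at gene level by PLIER in Affymetrix Expression Console. For the background step, the normalization options and the software versions: not given in the sources used here. Groups came from the labels, 2 arrays each. Of 33297 probe sets, 21214 had a gene symbol and were fitted, 19460 of them with 1 symbol, and the brightest per symbol gave 18417 genes. PLIER signal nears 0 for dim probe sets, so 16 was added before log2, which shrinks folds of dim genes.

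The fit used limma 3.58.1 in R 4.3.3 (lmFit, eBayes with trend, two-sided, 2 residual and 18.1 prior degrees of freedom), with Benjamini-Hochberg adjustment at 0.05, and was tested on simulated data. The number of arrays limits the precision, and the variance in each test came mostly from other genes. Without a variance trend the limma adjusted p was 0.000897 for ITGB8, 0.00196 for ITGA2 and 0.0268 for ITGA3. Replicate numbers did not pair arrays (correlation of deviations -0.01) and were a block only as an alternative. Gene order came from RefSeq for GRCh38.p14. The members and lists were chosen with earlier results of these data known. Named were all 10 chains, up to 4 called genes of each list by size of change and the most changed neighbour of each chain. Also named were the 3 nearest profiles to the most changed chain, after the exclusions given above.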

Additional observations from a re-analysis of the deposited data

How the results depend on the processing

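The falls of ITGB8, ITGA2 and ITGA3 kept direction and call in every refit that held them. There were 15 such refits for ITGB8, which was not among the probe sets kept above the 50th percentile, and 16 for ITGA2 and for ITGA3. Their log2 ranges were -1.75 to -1.42, -0.72 to -0.67 and -0.27 to -0.22. Lower calls among the 10 chains numbered 5 with quantile normalization, with median centring and at an adjusted p of 0.10, and 3 whichever array was left out. Higher calls numbered 1 above the 50th percentile of signal (where ITGB3 was not among the probe sets kept) and without a variance trend, and 0 with median centring and with all probe sets fitted, and leaving out arrays gave 0 to 2. Lower calls over all genes numbered 2852 in the main setting. They numbered 3220 with quantile normalization, 3396 with median centring and 3231 at an adjusted p of 0.10. Centring lowered every log2 change by 0.04. ITGB3 lost its call with median centring (log2 0.17), with all probe sets fitted (0.21) and when any array but FOXC1 replicate 2 was left out (range over the 4 arrays 0.19 to 0.23). ITGAV lost its call with median centring (0.11), without a variance trend (0.15), with all probe sets fitted (0.15) and without vector replicate 2 (range over arrays left out 0.11 to 0.19). ITGB5 passed with quantile normalization (-0.083), with median centring (-0.11) and at an adjusted p of 0.10 (-0.070). ITGA5 passed above the 25th and the 50th percentile (-0.079), with quantile normalization (-0.093), with median centring (-0.12), with the replicate block (-0.079) and at an adjusted p of 0.10 (-0.079). ITGB1 turned to -0.026 with quantile normalization, to -0.027 with median centring and to -0.0022 without FOXC1 replicate 1 (range to 0.032). ITGB6 turned to 0.044 without FOXC1 replicate 1 (range from -0.24). Over the 5 partner lists and the other integrin chains together, 42 lower and 23 higher calls in the main setting, lower calls ranged from 28 to 47 and higher calls from 17 to 25. The replicate block changed no call of the 10 chains except that of ITGA5. The causes of the lost and gained calls were not tested. Over all genes, 1790 were lower and 1461 higher without a variance trend, higher calls numbered 1739 with median centring, 1858 with all probe sets fitted and 1913 without vector replicate 2. Dim probe sets limit ITGB6 and ITGA4, whose intervals are the widest of the 10.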
